A study of Caenorhabditis elegans with 8 samples.

Results

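The vitellogenin genes of Caenorhabditis elegans, vit-1 to vit-6, encode the precursors of the yolk proteins. They were taken as the rows of the 6 deposited count tables that carry one of these 6 symbols. Of the 6 genes, 5 (vit-1 to vit-5) were found in all 6 tables, among 14396 transcripts listed in all, and all 5 passed the filter on low counts. vit-6 has no row in the tables used and was not analysed here.

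RNA was sequenced from whole worms of the Bristol strain at L4, the last larval stage, raised at 22 °C. Both worms labelled damt-1 and wild type worms were left untreated or exposed to antimycin A at 1.92 µM, the exposed ones in 3 groups named P0, F1 and F2, which gave 8 groups of 2 libraries. Antimycin A blocks complex III of the mitochondrial respiratory chain. damt-1 encodes a methyltransferase-like protein that has been linked to the methylation of adenines in DNA, and the kind of mutation the worms carried is not given in the sources used here. The treated groups are damt-1 P0, damt-1 F1, damt-1 F2, wild type P0, wild type F1 and wild type F2, and each genotype has 1 untreated group, so the 3 treated groups of a genotype are set against the same 2 untreated libraries. The submitters' texts place the start of exposure either at the egg or at L1, and do not say whether the parents of F1 and F2 worms had been exposed. The generation names are therefore used as labels.

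Vitellogenins are large lipid-binding proteins that the intestine of the hermaphrodite secretes into the body cavity, from where growing oocytes take them up through the receptor RME-2. Their genes are known to be silent in young larvae and in males, and to be switched on in the intestine as hermaphrodites pass from the last larval stage into adulthood. vit-1 and vit-2 encode one kind of large yolk polypeptide, vit-3, vit-4 and vit-5 encode the other, and vit-6 encodes a precursor that is cut into smaller yolk polypeptides.

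The gene models showed the same grouping. In the RefSeq annotation of the WBcel235 assembly, vit-1 to vit-5 lie on chromosome X and vit-6 on chromosome IV. vit-3, vit-4 and vit-5 each have 6 exons and a coding length of 4809 nucleotides, and exons 2 to 5 are of the same length in all 3 genes (285, 3038, 229 and 136 nucleotides). vit-1 and vit-2 each have 5 exons, with coding lengths of 4848 and 4839 nucleotides. vit-3 and vit-4 are neighbours with 0 protein-coding genes between them, 21 lie between vit-4 and vit-5, and 440 lie between vit-1 and vit-2. The members of each group are known as paralogs of similar sequence, which was not compared here, and how a read that matched several of them was counted is not given in the sources used here. The split of counts between paralogs is thus uncertain, and each comparison is also given for the sum of vit-3, vit-4 and vit-5 and for the sum of vit-1 and vit-2.

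Levels are in CPM, counts divided by the library total after scaling with TMM factors, and are given per library or as the mean ± SD of the 2 libraries of a group. Each library held between 3541390 and 4365451 counts, and 12592 transcripts passed the filter. A member was called where edgeR's quasi-likelihood test gave a Benjamini-Hochberg adjusted p under 0.05 over all transcripts tested in that comparison, and every adjusted p below is from that test unless another tool is named. The biological coefficient of variation was 2.18%. Nothing states that the 2 libraries of a group came from separate cultures, so p-values measure the spread between these libraries, which may be technical. The first principal component of all transcripts held 47.8% of the variance and parted damt-1 from wild type libraries. The damt-1 transcript itself stood at 19.4 ± 3.4 CPM in untreated worms labelled damt-1, against 19.8 ± 0.25 CPM in wild type untreated worms (log2 difference -0.03 ± 0.19, adjusted p = 0.93). It was lower in damt-1 than in wild type worms at P0 (-0.59 ± 0.18, adjusted p = 0.015) and F1 (-0.77 ± 0.18, adjusted p = 0.00086) and was not called at F2 (-0.39 ± 0.17, adjusted p = 0.062). The damt-1 transcript rose in wild type F1 by 0.67 ± 0.17 (adjusted p = 0.0024) and in F2 by 0.61 ± 0.17 (adjusted p = 0.0057), and was not called in treated damt-1 worms.

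In untreated worms, vit-3, vit-4 and vit-5 were far lower in damt-1 than in wild type, whereas vit-1 was higher. In damt-1 worms, each antimycin A group had more vit-3, vit-4 and vit-5 and less vit-1 than the untreated group. In wild type worms, treated groups had more vit-1 and vit-5 and less vit-3, and in F1 and F2 also less vit-4. All 5 members were lower in damt-1 than in wild type in each of the 3 treated conditions. Whole worms were measured, so fewer cells of a type and less RNA per cell cannot be told apart.

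**Figure D1:**
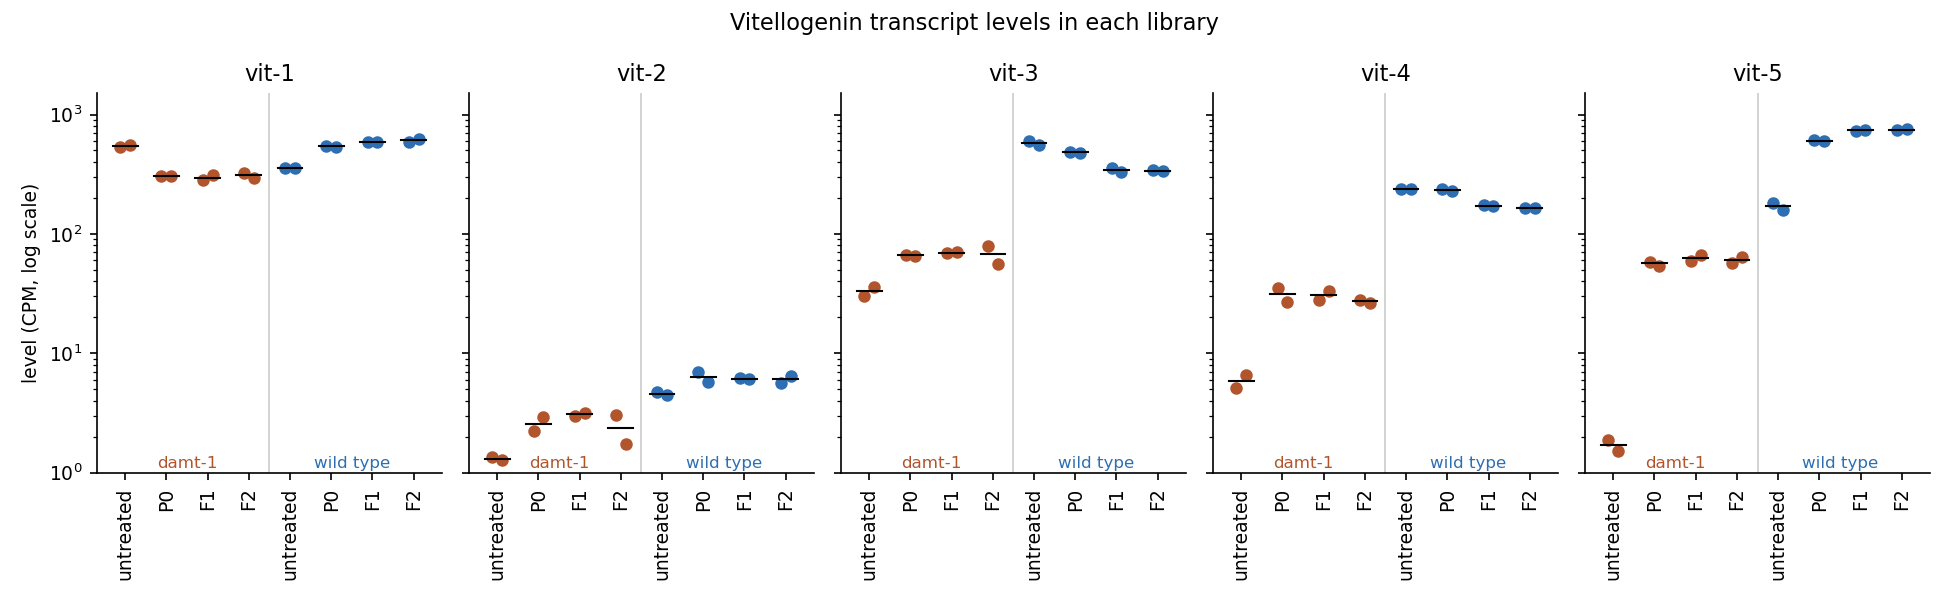
Levels of vit-1 to vit-5 in each of the 16 libraries, in CPM on a log axis, with damt-1 groups left and wild type groups right in each panel. Each point is 1 library and each bar the mean of a group. vit-5 stands at 1.705 CPM in damt-1 untreated worms and at 748.6 CPM in wild type F2 worms.

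vit-5 had the widest range of the 5 members. In damt-1 worms it stood at 1.888 and 1.521 CPM untreated (7 and 6 counts), 58.69 and 54.39 CPM in P0, 59.14 and 67.03 CPM in F1, and 56.93 and 64.13 CPM in F2. In wild type worms it stood at 180.2 and 159.3 CPM untreated, 609 and 597.1 CPM in P0, 723.3 and 747.2 CPM in F1, and 737 and 760.2 CPM in F2. Each damt-1 library was below each wild type library, and within both genotypes each treated library was above both untreated ones. In the order of the 8 group means, neighbours whose libraries overlapped were wild type F2 and F1 at the top, and damt-1 F1, F2 and P0 below wild type untreated.

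vit-4 spanned a narrower range with a different order in wild type worms. In damt-1 worms it stood at 5.125 and 6.59 CPM untreated, 35.47 and 26.8 CPM in P0, 28.2 and 33.25 CPM in F1, and 28.21 and 26.58 CPM in F2. Wild type levels were 237.4 and 240 CPM untreated, 235.6 and 228.4 CPM in P0, 174.5 and 171.5 CPM in F1, and 165 and 164.3 CPM in F2. The 8 wild type libraries were all above the 8 damt-1 libraries. Wild type groups had their highest level without treatment, while damt-1 worms had their lowest level without it.

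vit-3 had the same order as vit-4 in wild type groups. In damt-1 worms it stood at 30.48 and 35.74 CPM untreated, 66.93 and 65.27 CPM in P0, 68.72 and 70.17 CPM in F1, and 79.1 and 56.04 CPM in F2. Wild type levels were 596.1 and 554 CPM untreated, 489 and 477 CPM in P0, 358.2 and 327.5 CPM in F1, and 341.8 and 336.2 CPM in F2. Wild type F1 and F2 libraries overlapped, as did those of the 3 damt-1 treated groups. The 2 damt-1 F2 libraries were the least alike of these pairs.

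vit-1 differed from the others in that damt-1 and wild type libraries did not form separate ranges. In damt-1 worms it stood at 529.5 and 560.7 CPM untreated, 306.7 and 307 CPM in P0, 280.9 and 311.3 CPM in F1, and 326 and 295.8 CPM in F2. Wild type levels were 359.8 and 353.7 CPM untreated, 541.5 and 539.1 CPM in P0, 583.2 and 587.6 CPM in F1, and 593 and 619.8 CPM in F2. The untreated damt-1 libraries thus overlapped with wild type P0, and the 3 treated damt-1 groups were the lowest of the 8.

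vit-2 was close to the limit of detection throughout, with 5 to 12 counts per library in damt-1 worms and 18 to 27 counts per library in wild type worms. Group means were 1.308 CPM in damt-1 untreated, 2.583 CPM in P0, 3.077 CPM in F1 and 2.378 CPM in F2 worms, and 4.602 CPM in wild type untreated, 6.367 CPM in P0, 6.152 CPM in F1 and 6.061 CPM in F2 worms. Every damt-1 library was below every wild type library. vit-2 made up 0.226% to 0.254% of the summed vit-1 and vit-2 counts in damt-1 untreated libraries and 1.25% to 1.29% in wild type untreated libraries. How reads shared by vit-1 and vit-2 were counted is not known, so the low level and share of vit-2 may depend on it.

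Per length of spliced transcript, the member with the highest level depended on the group. In damt-1 untreated worms vit-1 led with 104.1 and 110.2 CPM per kilobase, and vit-3 followed with 6.19 and 7.258 CPM per kilobase. In wild type untreated worms vit-3 led with 121.1 and 112.5 CPM per kilobase, and vit-1 followed with 70.72 and 69.51 CPM per kilobase. In the 3 treated wild type groups vit-5 led, with 122.6 to 156.1 CPM per kilobase, whereas in the 3 treated damt-1 groups vit-1 led, with 55.21 to 64.07 CPM per kilobase. By mean counts per nucleotide, vit-5 was at the 1.94th percentile of transcripts in damt-1 untreated worms and at the 89.9th percentile in wild type F2 worms.

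**Figure D2:**
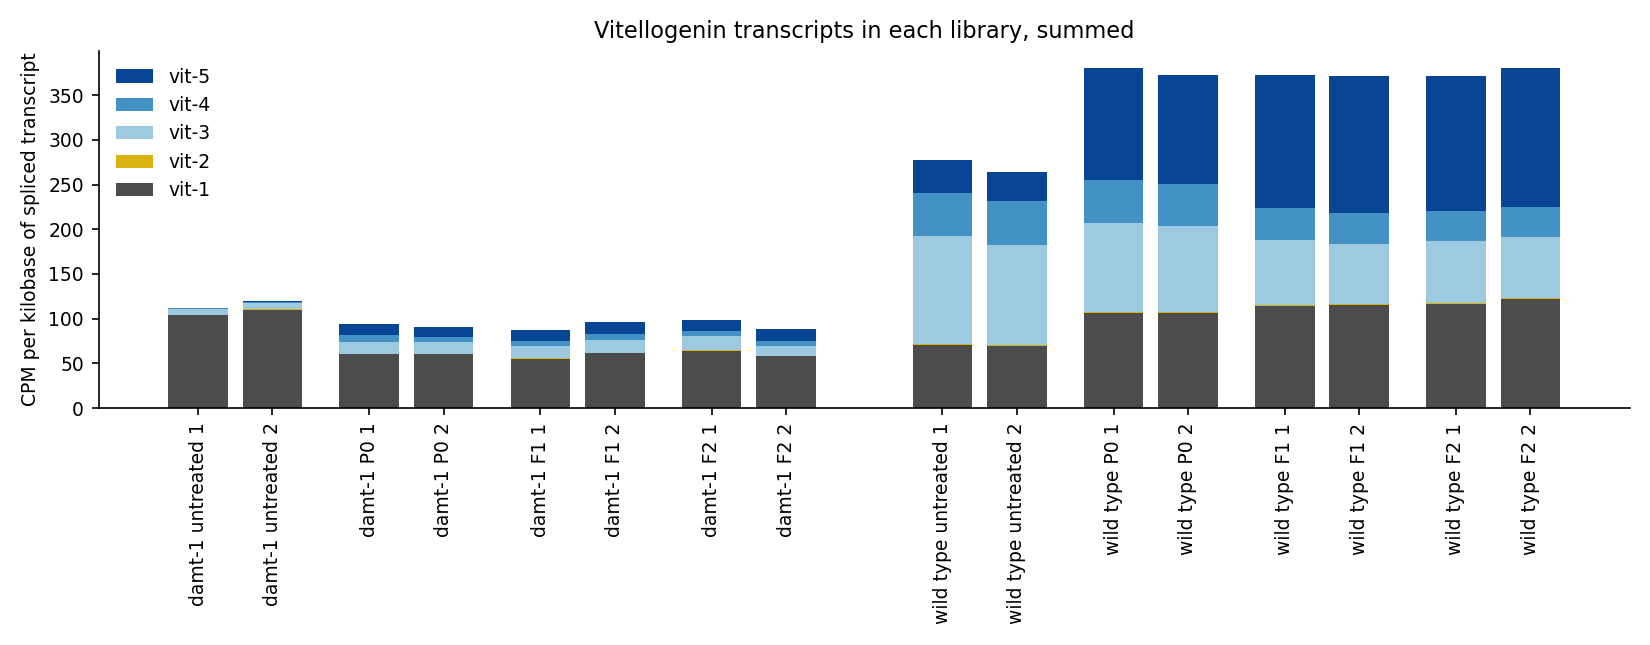
Levels of the 5 members stacked for each library, in CPM per kilobase of spliced transcript, with damt-1 libraries left and wild type libraries right. The vit-1 segment fills most of the bar in damt-1 untreated libraries, and the vit-5 segment widens in treated wild type libraries.

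The 5 members together made up 587.1 ± 26.5 CPM in damt-1 untreated, 463.2 ± 9.66 CPM in P0, 462.4 ± 31.8 CPM in F1 and 468.8 ± 34.6 CPM in F2 worms. The wild type sum was 1345 ± 47.3 CPM untreated, 1865 ± 24.6 CPM in P0, 1843 ± 3.84 CPM in F1 and 1865 ± 31.5 CPM in F2 (SD, n = 2 throughout). vit-1 held 92.6% to 93.2% of the summed counts in damt-1 untreated libraries, against 26.1% to 27% in wild type untreated libraries. In treated libraries its share was 63.8% to 67.3% in damt-1 worms and 28.8% to 32.8% in wild type worms.

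The first comparison set damt-1 against wild type within each condition. In untreated worms all 5 members were called, 4 lower and 1 higher in damt-1, where 38.2% of 12474 transcripts tested were called (20.3% lower and 17.9% higher). The median log2 difference of the 5 was -4.11, against -0.00112 over all transcripts tested. vit-5 had a log2 difference of -6.61 ± 0.17, which is 97.8-fold lower in damt-1 (adjusted p = 5.8e-20) and the 20th most negative of the 12474. Its 13 counts in damt-1 untreated worms allow 58.0-fold to 188-fold by an exact 95% interval that covers counting error only, which is wider than the SE of the fit.

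For vit-4 the log2 difference of damt-1 untreated from wild type untreated worms was -5.34 ± 0.11 (40.4-fold lower in damt-1, adjusted p = 1.4e-21). Its 45 counts in damt-1 untreated worms allow 30.22-fold to 55.85-fold by counting error alone. For vit-3 the difference was -4.11 ± 0.087 (17.3-fold lower in damt-1, adjusted p = 2.2e-21) and for vit-2 it was -1.79 ± 0.48 (3.46-fold lower, adjusted p = 0.0042). The vit-2 counts, 10 in damt-1 untreated and 37 in wild type untreated worms, allow a log2 difference of -2.99 to -0.78. vit-1 was higher in damt-1 by 0.61 ± 0.046, or 1.53-fold (adjusted p = 8.4e-11). The groups did not overlap for any of the 5.

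In treated worms all 5 members were called lower in damt-1 than in wild type at P0, F1 and F2. Of all transcripts tested, 35.8% were called in either direction at P0 (20.2% lower), 51.4% at F1 (26.9% lower) and 49.3% at F2 (26% lower). The log2 difference of vit-5 was -3.41 ± 0.062 at P0, -3.54 ± 0.059 at F1 and -3.63 ± 0.060 at F2, which is 10.7-fold to 12.4-fold lower in damt-1. For vit-4 it was -2.89 ± 0.076, -2.49 ± 0.082 and -2.58 ± 0.086, and for vit-3 -2.87 ± 0.077, -2.30 ± 0.082 and -2.31 ± 0.083, in the same order of conditions.

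The sign for vit-1 turned with treatment. Its log2 difference of damt-1 from wild type was -0.82 ± 0.047 at P0, -0.98 ± 0.047 at F1 and -0.96 ± 0.047 at F2 (adjusted p = 1.4e-12, 4.4e-14 and 5.8e-14). For vit-2 it was -1.29 ± 0.40, -0.99 ± 0.39 and -1.32 ± 0.41 (adjusted p = 0.014, 0.037 and 0.01). With DESeq2 the vit-2 difference did not pass at P0 (-1.31 ± 0.55, adjusted p = 0.068) or at F1 (-1 ± 0.54, adjusted p = 0.13), nor at F1 with TMM factors from transcripts of low read density (-0.75 ± 0.41, adjusted p = 0.11). The call was also lost without wild type P0 replicate 1 or damt-1 P0 replicate 1 at P0, without wild type F1 replicate 1 or 2, wild type F2 replicate 2 or damt-1 F1 replicate 1 or 2 at F1, and without wild type F2 replicate 2 or damt-1 F2 replicate 2 at F2.

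**Figure D3:**
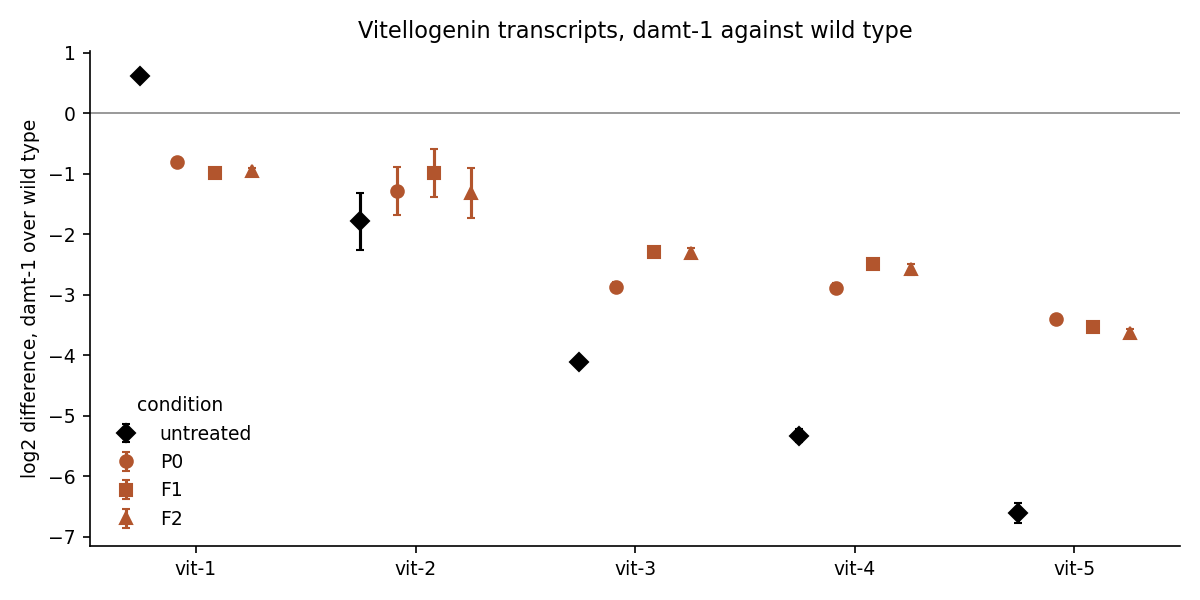
Log2 difference of damt-1 over wild type for each member, untreated and at P0, F1 and F2. Points are edgeR estimates from 2 libraries per group and bars are ± 1 SE. vit-1 lies above 0 in untreated worms and below 0 in the 3 treated conditions, and the other members lie below 0 throughout.

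The second comparison set each antimycin A group against the untreated group of its genotype. In damt-1 worms 4 of the 5 tested members were called at P0, F1 and F2, 3 higher and 1 lower, where 14.1%, 13.2% and 13.7% of all transcripts were called. Of all transcripts, 8.41%, 7.69% and 7.9% were called higher and 5.68%, 5.53% and 5.84% lower. vit-5 rose by 5.03 ± 0.23 in P0, 5.19 ± 0.22 in F1 and 5.12 ± 0.23 in F2 (adjusted p = 2.1e-14, 6.7e-15 and 1.2e-14), or 32.7-fold, 36.5-fold and 34.9-fold. Counting error alone allows 19.3-fold to 63.1-fold in P0, since damt-1 untreated worms had 13 counts.

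Among the others, vit-4 rose in damt-1 worms by 2.40 ± 0.19 in P0, 2.38 ± 0.19 in F1 and 2.22 ± 0.20 in F2, or 5.29-fold, 5.21-fold and 4.65-fold. Counting error alone allows 3.855-fold to 7.48-fold for vit-4 in P0, since damt-1 untreated worms had 45 counts. vit-3 rose by 0.99 ± 0.14, 1.07 ± 0.14 and 1.04 ± 0.14, or 1.99-fold, 2.09-fold and 2.06-fold. Both passed in each group, with adjusted p of at most 9.9e-06. vit-1 went the other way and fell by 0.83 ± 0.048 in P0, 0.88 ± 0.048 in F1 and 0.81 ± 0.048 in F2 (adjusted p = 1.9e-12, 8.3e-13 and 3.7e-12).

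The low counts of vit-2 gave log2 differences of 0.96 ± 0.53 in damt-1 P0, 1.22 ± 0.52 in F1 and 0.87 ± 0.54 in F2, none past the threshold (adjusted p = 0.28, 0.14 and 0.36). The counts, 20, 23 and 18 over the treated libraries against 10 over the untreated ones, allow a log2 difference of -0.19 to 2.24 in P0. In F1 the interval is 0.11 to 2.47 and in F2 it is -0.30 to 2.17.

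In wild type worms 3 of the 5 tested members were called at P0, 2 higher and 1 lower, where 21.1% of all transcripts were called (13% higher and 8.14% lower). At F1 and F2, 4 of 5 were called, 2 higher and 2 lower, where 46.9% of all transcripts were called in each (26.2% higher and 20.7% lower at F1, 25.9% higher and 21% lower at F2). vit-5 rose by 1.83 ± 0.049 in P0, 2.12 ± 0.047 in F1 and 2.15 ± 0.047 in F2, or 3.56-fold, 4.35-fold and 4.42-fold (adjusted p = 1.4e-18, 1.9e-20 and 1.5e-20). vit-1 rose by 0.60 ± 0.046, 0.71 ± 0.045 and 0.77 ± 0.045 in the same groups.

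In the same worms vit-3 fell by 0.25 ± 0.050 in P0, 0.75 ± 0.053 in F1 and 0.76 ± 0.053 in F2 (adjusted p = 0.00067, 3.8e-11 and 3.1e-11). vit-4 differed by -0.04 ± 0.046 in P0 (adjusted p = 0.6) and fell by 0.47 ± 0.049 in F1 and 0.54 ± 0.050 in F2 (adjusted p = 3.4e-08 and 4.3e-09). The vit-2 differences were 0.46 ± 0.36, 0.42 ± 0.36 and 0.40 ± 0.36, none of which passed (adjusted p = 0.42, 0.36 and 0.4). By these counts, genes of the same exon layout differed in the sign of their change, vit-5 being higher and vit-3 lower in each treated group than in the untreated group. The split of counts between them is uncertain, and the sum of vit-3, vit-4 and vit-5 rose by 0.42, 0.35 and 0.35.

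**Figure D4:**
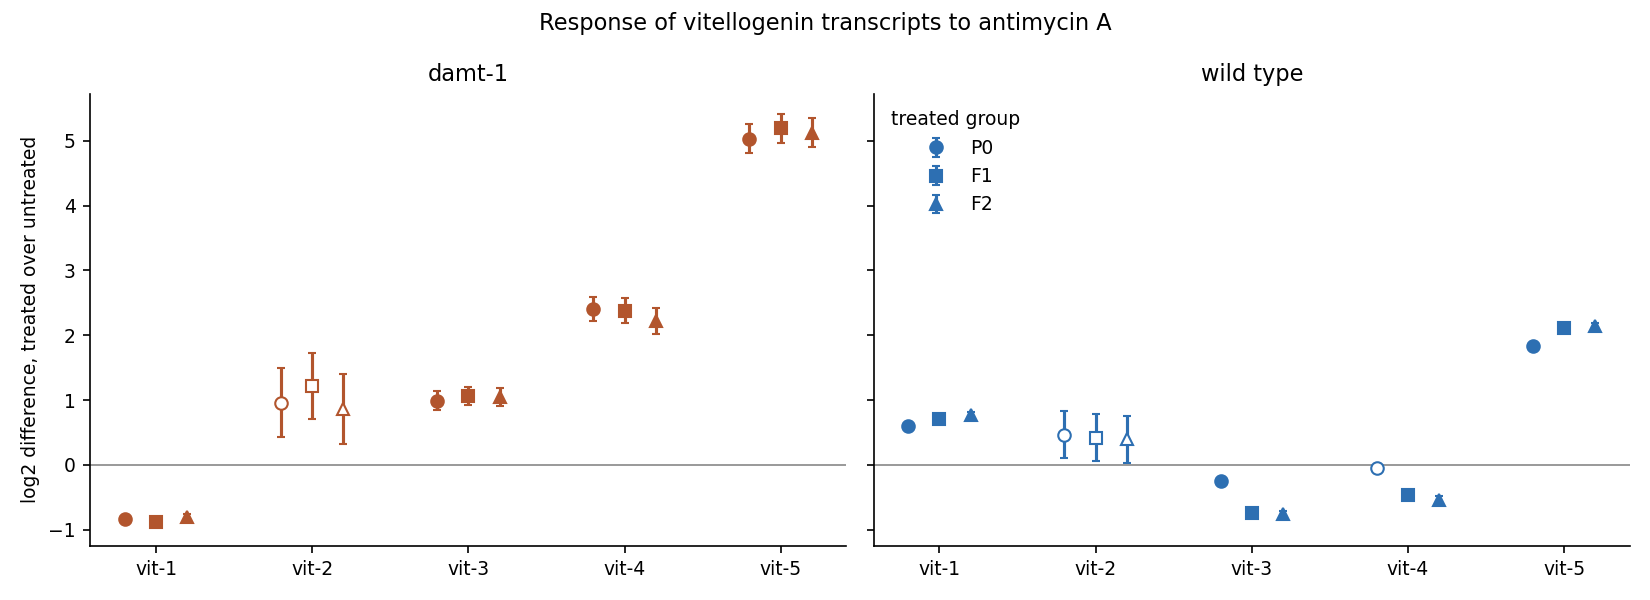
Log2 difference of antimycin A treated over untreated worms for each member, damt-1 left and wild type right. Points are edgeR estimates and bars are ± 1 SE, and open symbols did not pass the adjusted p of 0.05. The 3 treated groups of a genotype share 1 untreated group.

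Whether the 2 genotypes differed in their change with treatment was tested as an interaction, the change in damt-1 worms minus the change in wild type worms. Of the 5 members, 4 were called at P0, F1 and F2, where 22%, 40.4% and 40.1% of all transcripts were called. vit-5 had a log2 interaction of 3.20 ± 0.29 at P0, 3.07 ± 0.29 at F1 and 2.98 ± 0.29 at F2. For vit-4 it was 2.45 ± 0.20, 2.85 ± 0.19 and 2.75 ± 0.20, and for vit-3 1.24 ± 0.15, 1.81 ± 0.15 and 1.80 ± 0.15. The vit-5 and vit-4 interactions rest on 13 and 45 counts in damt-1 untreated worms. Counting error alone allows 4.27 to 5.98 for the log2 change of vit-5 in damt-1 P0, wider than these SEs imply.

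The members vit-5, vit-4 and vit-3 had a more positive change in damt-1 than in wild type worms. vit-1 had a more negative one, at -1.43 ± 0.066, -1.60 ± 0.066 and -1.57 ± 0.066. The largest adjusted p among the 12 calls was 5.8e-07. vit-2 had 0.50 ± 0.64, 0.80 ± 0.63 and 0.47 ± 0.65 and was not called (adjusted p = 0.66, 0.34 and 0.6).

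The third comparison was between the groups labelled by generation. In wild type worms 3 members were called between F1 and P0, where 22.4% of all transcripts were called, and 4 between F2 and P0, where 22.5% were called. By direction, these were 1 higher and 2 lower in F1 (12.2% and 10.2% of all transcripts) and 2 higher and 2 lower in F2 (12.1% and 10.4%). The log2 differences of F1 from P0 were -0.50 ± 0.054 for vit-3, -0.42 ± 0.049 for vit-4 and 0.29 ± 0.038 for vit-5. In F2 the differences from P0 were -0.51 ± 0.055 for vit-3, -0.49 ± 0.050 for vit-4 and 0.31 ± 0.038 for vit-5. vit-1 differed by 0.12 ± 0.042 between F1 and P0 (adjusted p = 0.052) and was higher in F2 than in P0 by 0.17 ± 0.042 (adjusted p = 0.0057), a call lost without wild type F2 replicate 2 (0.12, adjusted p = 0.16) and with TMM factors from transcripts of low read density (0.09, adjusted p = 0.27). The vit-1 difference between F1 and P0 passed in 6 of 26 settings: with library size only (adjusted p = 0.037), with a filter of 10 CPM (adjusted p = 0.032), and without damt-1 F1 replicate 1 or 2 or damt-1 F2 replicate 1 or 2 (adjusted p = 0.028 to 0.044).

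No member was called between wild type F2 and F1, or between any of damt-1 F1, F2 and P0, and neither edgeR nor DESeq2 called a transcript in these 4 comparisons (0%). Unadjusted edgeR p-values were under 0.05 for 452 of 12540 transcripts between wild type F2 and F1 and for 519 to 573 between damt-1 groups, and for 0 of the 5 members in each. Each of these counts of transcripts was below the share of 0.05 that would be awaited with no difference. The SEs of vit-3, vit-4 and vit-5 between damt-1 groups were 0.099 to 0.13.

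The sum of vit-3, vit-4 and vit-5 was 37.5 and 43.85 CPM in damt-1 untreated libraries, against 1014 and 953.2 CPM in wild type untreated libraries, a log2 difference of -4.59 ± 0.067 (24.1-fold lower, adjusted p = 1.1e-23). At P0, F1 and F2 the difference was -3.10 ± 0.051, -2.94 ± 0.051 and -3.01 ± 0.051. In damt-1 worms the sum rose by 1.92 ± 0.094 in P0, 2.00 ± 0.093 in F1 and 1.94 ± 0.094 in F2.

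The wild type sum of the 3 rose by 0.42 ± 0.038 in P0, 0.35 ± 0.038 in F1 and 0.35 ± 0.039 in F2. Over 26 settings this rise ran from 0.372 to 0.466 in P0, 0.2 to 0.39 in F1 and 0.221 to 0.397 in F2. The rise of vit-5 alone was larger in each of these groups, as given above. Between wild type F1 and P0 and between F2 and P0 the sum differed by -0.08 ± 0.037 (adjusted p = 0.16) and -0.07 ± 0.038 (adjusted p = 0.18). Interactions for the sum were 1.49 ± 0.10, 1.65 ± 0.10 and 1.59 ± 0.10 at P0, F1 and F2.

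For vit-1 and vit-2 together the values followed vit-1, which held nearly all of the counts. The sum was higher in damt-1 untreated than in wild type untreated worms by 0.60 ± 0.046. It fell in damt-1 worms by 0.82 ± 0.048 in P0, 0.87 ± 0.048 in F1 and 0.80 ± 0.048 in F2, and rose in wild type worms by 0.60 ± 0.046, 0.71 ± 0.045 and 0.76 ± 0.045.

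Within the vit-3, vit-4 and vit-5 counts the shares moved in both genotypes. vit-5 held 36.4% to 37.1% in damt-1 P0, 37.9% to 39.3% in F1 and 34.7% to 43.7% in F2 libraries, against 3.47% to 5.04% in damt-1 untreated libraries. Wild type shares of vit-5 were 45.7% to 45.8% in P0, at least 57.6% in F1 and 59.3% to 60.3% in F2 libraries, against 16.7% to 17.8% in untreated libraries. vit-3 held 81.3% and 81.5% in the 2 damt-1 untreated libraries, with exact 95% intervals of 73.8% to 87.4% and 74.9% to 87%, and 58.8% and 58.1% in the wild type untreated libraries. The vit-3 share was lower in each treated library than in the untreated libraries of the same genotype.

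The authors' deposited tables of treated against untreated worms list all 5 members for damt-1 worms, 4 of them with an adjusted p under 0.05. In the authors' deposited table for damt-1 P0, vit-5 has a log2 fold change of 5.06 and vit-1 one of -0.83. Their wild type tables, which hold positive fold changes only, list 3 members (vit-1, vit-2 and vit-5), 2 of them with an adjusted p under 0.05.

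Genes that act on yolk before or after the vitellogenins were counted next. The list counts that follow stand against these shares of all transcripts. Between untreated genotypes 38.2% of all transcripts were called. Treated against untreated, the share was 14.1%, 13.2% and 13.7% in damt-1 P0, F1 and F2. In wild type P0, F1 and F2 it was 21.1%, 46.9% and 46.9%. Of 10 tested genes for yolk uptake and endocytosis, 1 was higher and 1 lower in damt-1 untreated than in wild type untreated worms, 0 changed in any treated damt-1 group, 0 changed in wild type P0, 1 rose and 3 fell in wild type F1, and 1 rose and 2 fell in F2. rme-2, which encodes the oocyte yolk receptor, had 11 counts in damt-1 F1, 8 in damt-1 untreated, 71 in wild type F1 and 13 in wild type untreated worms. It rose in wild type F1 by 2.37 ± 0.54 (adjusted p = 0.00083) and in F2 by 1.90 ± 0.56 (adjusted p = 0.0074). In damt-1 F1 worms it was lower than in wild type F1 worms (log2 difference -2.49 ± 0.55, adjusted p = 0.00066), but the F1 interaction did not pass (-1.89 ± 0.99, adjusted p = 0.14). Of the 10 genes, 2 were higher and 1 lower in damt-1 than in wild type worms at P0, 7 higher and 1 lower at F1, and 4 higher and 1 lower at F2. The lower gene was rme-2 each time. Of all transcripts, 15.5%, 24.6% and 23.3% were higher and 20.2%, 26.9% and 26% lower in these 3 comparisons.

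Of 10 genes for lipoprotein assembly and lipid supply, 3 were higher and 3 lower in damt-1 untreated than in wild type untreated worms. Each treated damt-1 group had 1 higher and 2 lower, and the wild type groups had 4 higher and 1 lower at P0, 4 higher and 3 lower at F1 and 5 higher and 2 lower at F2. fasn-1, the fatty acid synthase, was at 1510 ± 20 CPM in damt-1 P0, 1530 ± 20 CPM in F1 and 1540 ± 1.2 CPM in F2, against 1670 ± 9.3 CPM in damt-1 untreated worms. Wild type levels were 1030 ± 15 CPM in P0, 1300 ± 1 CPM in F1 and 1310 ± 3.3 CPM in F2, against 870 ± 19 CPM untreated. Its changes were -0.14 ± 0.029, -0.12 ± 0.029 and -0.12 ± 0.029 in damt-1 worms and 0.25 ± 0.032, 0.58 ± 0.031 and 0.59 ± 0.031 in wild type worms, all past the threshold.

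lbp-8, a lysosomal fatty acid binding protein gene, rose in both genotypes. It was at 36.4 ± 5.6 CPM in damt-1 P0, 43.1 ± 0.53 CPM in F1 and 37.9 ± 1.2 CPM in F2, against 22.2 ± 1.6 CPM in damt-1 untreated worms. Wild type levels were 7.07 ± 0.85 CPM in P0, 9.24 ± 0.58 CPM in F1 and 11.6 ± 0.65 CPM in F2, against 0.76 ± 0.41 CPM untreated, which rests on 6 counts. dsc-4, the microsomal triglyceride transfer protein gene needed to load lipid onto yolk lipoproteins, fell slightly in wild type F1 (-0.12 ± 0.041, adjusted p = 0.017) and was higher in damt-1 than in wild type F1 worms by 0.31 ± 0.041 (adjusted p = 1.2e-06).

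Of 24 listed regulators of vitellogenin genes, 13 were tested, and 2 were higher and 4 lower in damt-1 untreated than in wild type untreated worms. Of all transcripts, 17.9% were higher and 20.3% lower there. Treated damt-1 worms had 2 higher and 1 lower at P0, 1 higher and 1 lower at F1, and 2 higher and 1 lower at F2. Treated wild type worms had 0 higher and 3 lower at P0, 2 higher and 5 lower at F1, and 1 higher and 5 lower at F2. Of all transcripts, 46.9% were called in wild type F1 and 46.9% in F2. The median log2 differences of the list were 0.166, 0.103 and 0.0371 in damt-1 P0, F1 and F2, and -0.114, -0.231 and -0.102 in wild type P0, F1 and F2.

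ceh-60, a homeobox gene known to promote vitellogenin expression, was at 89.3 ± 3.1 CPM in damt-1 untreated worms, against 176 ± 6.3 CPM in wild type untreated worms (log2 difference -0.98 ± 0.063, adjusted p = 5.1e-12). It fell in wild type worms by 0.36 ± 0.056 in P0, 0.80 ± 0.060 in F1 and 0.90 ± 0.062 in F2. In treated damt-1 worms it was at 92.8 to 96.7 CPM by group mean and was not called. ceh-60 was lower in damt-1 than in wild type worms at P0 by a log2 difference of -0.51 ± 0.066 (adjusted p = 1.1e-06), and was not called at F1 (-0.13 ± 0.071, adjusted p = 0.15) or F2 (0.03 ± 0.073, adjusted p = 0.78). The part of ceh-60 in the vitellogenin differences was not tested.

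mab-3, which represses vitellogenin genes in the male intestine, was at 11.3 ± 0.87 CPM in damt-1 untreated worms, against 1.11 ± 0.092 CPM in wild type untreated worms (3.30 ± 0.47, adjusted p = 4.1e-06). With 86 and 9 counts, a counting interval of the ratio runs from 5.06-fold to 22.7-fold. In treated damt-1 worms it was at 5.63 ± 1.2 CPM in P0, 6.03 ± 0.76 CPM in F1 and 6.13 ± 1.5 CPM in F2, none called against untreated worms (adjusted p = 0.072, 0.11 and 0.12). It rose in wild type F1 by 1.89 ± 0.54 and in F2 by 2.08 ± 0.53 (adjusted p = 0.0058 and 0.0025), to 4.19 ± 2.1 and 4.82 ± 1.2 CPM.

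pqm-1, a zinc finger gene linked to vitellogenin expression, was lower in damt-1 untreated than in wild type untreated worms by 0.58 ± 0.059 (107 ± 6 against 160 ± 11 CPM, adjusted p = 1.6e-08). It rose in damt-1 worms by 0.48 ± 0.060 in P0, 0.43 ± 0.061 in F1 and 0.49 ± 0.061 in F2, and was not called in treated wild type worms. elt-2, the GATA factor of the intestine on which vitellogenin promoters depend, was not called in damt-1 untreated against wild type untreated worms or in treated damt-1 worms. It fell by 0.23 ± 0.055 in wild type F1 and by 0.23 ± 0.055 in F2. In each treated condition elt-2 was higher in damt-1 than in wild type worms, by 0.20 ± 0.053 at P0, 0.51 ± 0.054 at F1 and 0.43 ± 0.055 at F2 (adjusted p = 0.0045, 3.9e-08 and 6.6e-07). The part of pqm-1 and elt-2 in the vitellogenin differences was not tested.

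tra-1, which directs hermaphrodite development and represses mab-3, was at 156 ± 9.4 CPM in damt-1 untreated worms, against 229 ± 6.4 CPM in wild type untreated worms (log2 difference -0.55 ± 0.057, adjusted p = 2.2e-08). It rose in damt-1 P0 by 0.22 ± 0.060 (adjusted p = 0.012) and in F2 by 0.18 ± 0.061 (adjusted p = 0.047), and was not called in F1 (0.17 ± 0.061, adjusted p = 0.081). tra-1 fell in wild type worms by 0.34 ± 0.054 in P0, 0.60 ± 0.056 in F1 and 0.66 ± 0.057 in F2. dbl-1, which encodes a ligand of the bone morphogenetic protein family, was not called between untreated genotypes (-0.16 ± 0.10, adjusted p = 0.22) or in treated damt-1 worms. It fell in wild type worms by 0.38 ± 0.10 in P0, 0.79 ± 0.11 in F1 and 0.63 ± 0.11 in F2.

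**Figure D5:**
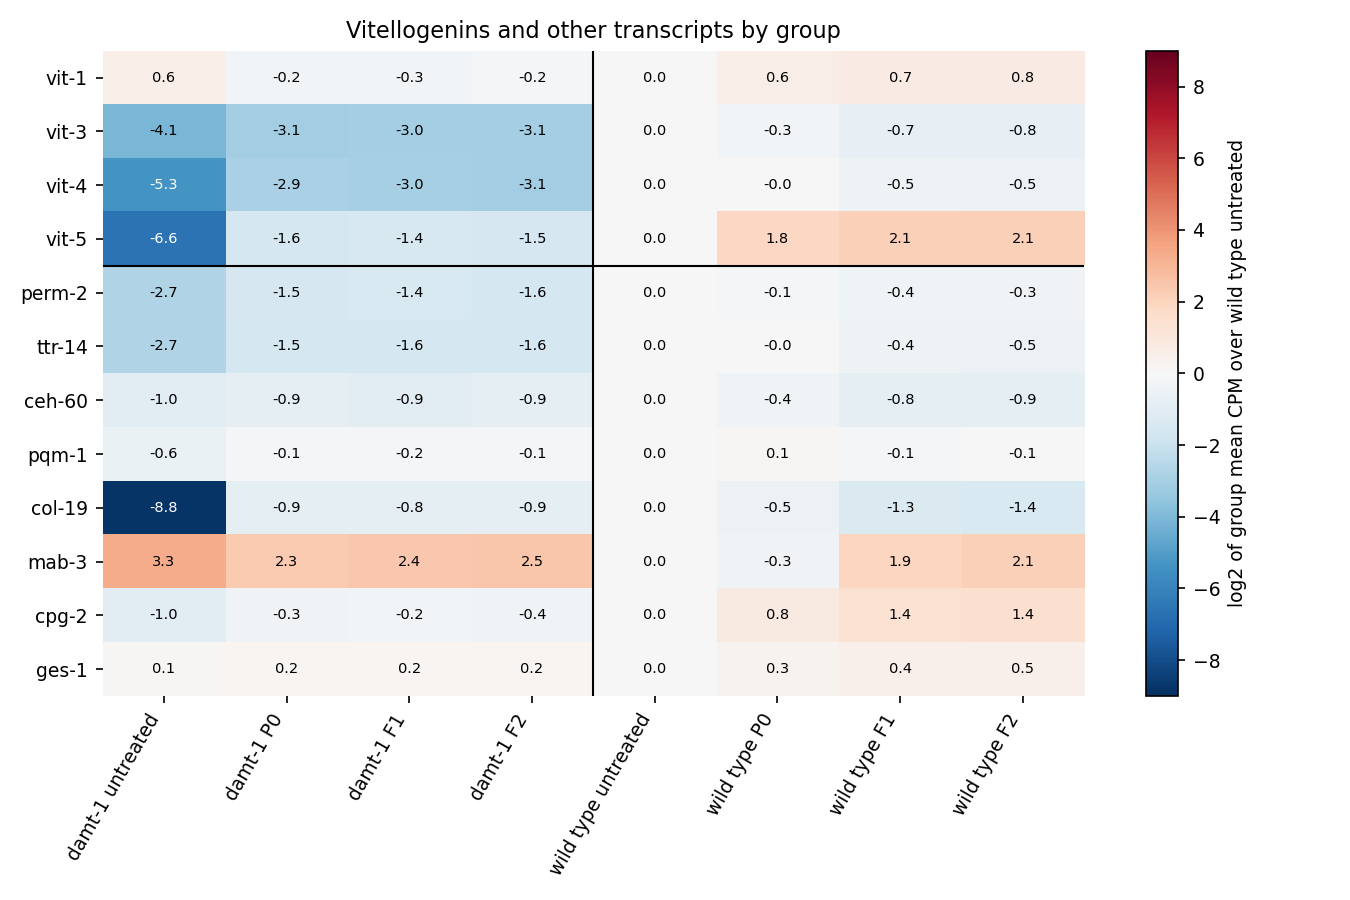
Log2 of each group's mean CPM over that of wild type untreated worms, for 4 members above the line and 8 other named genes below it, with damt-1 groups left and wild type groups right. The colour and the printed number are the same value. col-19 and vit-5 have their lowest values in damt-1 untreated worms, at -8.8 and -6.6.

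Markers of tissues and stage were set beside these results. The shares of all transcripts given for the yolk genes apply to the marker counts too. The summed level of 10 tested intestine markers was 4019 to 4112 CPM in damt-1 untreated libraries, against 3729 to 3934 CPM in wild type untreated libraries, and 2 of the 10 were called higher and 2 lower. In treated worms the sum was 4049 to 4357 CPM in damt-1 and 3655 to 4017 CPM in wild type libraries, so all 16 sums lay between 3655 and 4357 CPM. Of the 10, 3 were higher and 1 lower in damt-1 than in wild type worms at P0, 6 higher and 1 lower at F1, and 4 higher and 1 lower at F2. In damt-1 worms 1, 2 and 1 of the 10 rose and 0 fell in P0, F1 and F2. The wild type groups had 2 higher and 1 lower at P0, 2 higher and 4 lower at F1 and 2 higher and 2 lower at F2.

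Of the oocyte and eggshell markers, a list that also holds rme-2, most were lower in damt-1. Of the 12, 10 were lower in damt-1 untreated than in wild type untreated worms and 12 were lower in each treated condition. Of all transcripts, 20.3% were lower in damt-1 untreated worms, and 20.2%, 26.9% and 26% at P0, F1 and F2. The summed level of the 12 was 229.8 to 248.1 CPM in damt-1 untreated libraries, against 557.6 to 621.9 CPM in wild type untreated libraries. With treatment 7 rose and 0 fell in each damt-1 group, to sums of 333.1 to 384.1 CPM. Among wild type groups 6 rose in P0, and 10 rose and 1 fell in F1 and in F2, to sums of 835.3 to 1237 CPM over the 3 groups. Their part in the vitellogenin differences was not tested.

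Germ line markers had opposite directions in the 2 genotypes. Of 6 tested, 0 rose and 5 fell in each treated damt-1 group, and 6 rose and 0 fell in each treated wild type group. Their sum was 729.4 to 794.5 CPM in treated damt-1 libraries, against 973.8 to 984.5 CPM untreated, and 1462 to 1756 CPM in treated wild type libraries, against 1071 to 1083 CPM untreated. Of 9 sperm markers, 8 were tested in damt-1 worms, 0 changed with treatment there, and 7 of 8 were lower in damt-1 untreated than in wild type untreated worms. At wild type P0, F1 and F2, 2, 3 and 4 of 9 rose. The germ line interaction was called for 6 of 6 markers at P0, F1 and F2, all with the sign of vit-1. Of all transcripts, 11.5%, 21.7% and 21.5% had a called negative interaction. The part of the germ line in the vitellogenin differences was not tested.

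Among 6 adult cuticle collagens, 2 were higher and 3 lower in damt-1 untreated than in wild type untreated worms. col-19, a collagen of the adult cuticle that is switched on at the last moult, had 4 counts in damt-1 untreated worms (0.523 ± 0.023 CPM), against 241 ± 8.9 CPM in wild type untreated worms. It was at 130 ± 0.63 CPM in damt-1 P0, 135 ± 2.4 CPM in F1 and 132 ± 2.3 CPM in F2. With 4 counts untreated, the exact 95% counting interval of the P0 ratio runs from 96.5-fold to 911-fold. Its wild type levels fell by 0.53 ± 0.049 in P0, 1.28 ± 0.055 in F1 and 1.38 ± 0.057 in F2.

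The adult collagens col-62 and col-7 were also scarce in damt-1 untreated worms. Over the 6, the median log2 difference of damt-1 untreated from wild type untreated worms was -1.94, but the summed level was higher. That sum was 1967 to 2032 CPM in damt-1 untreated libraries, against 1609 to 1708 CPM in wild type untreated libraries. col-62 had 213, 136 and 137 counts in damt-1 P0, F1 and F2 worms, against 0 in damt-1 untreated worms, and 37 in wild type untreated worms. In wild type P0, F1 and F2 worms col-62 had 38, 11 and 3 counts. col-7 had 142, 107 and 122 counts in damt-1 P0, F1 and F2 worms, against 1 in damt-1 untreated worms, and 20 in wild type untreated worms. In wild type P0, F1 and F2 worms col-7 had 64, 2 and 4 counts. bli-1, another adult collagen, was higher in damt-1 untreated than in wild type untreated worms by 0.82 ± 0.040. At 1200 ± 18 against 679 ± 29 CPM, bli-1 held much of the summed level of the 6. Treated damt-1 worms had 3 of the 6 collagens higher and 1 lower in P0 and F1, and 3 higher and 0 lower in F2, and treated wild type worms had 2 higher and 1 lower in P0 and 1 higher and 5 lower in F1 and in F2. The part of stage in the vitellogenin differences was not tested, and all worms carry the label L4.

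Counts for the remaining tissues in damt-1 untreated against wild type untreated worms were 2 higher and 2 lower of 6 hypodermis markers, 0 higher and 2 lower of 3 tested pharynx markers, 1 higher and 0 lower of 5 body wall muscle markers and 0 higher and 1 lower of 4 tested neuron markers. In damt-1 F1 worms against untreated ones the same lists had 1 higher and 1 lower, 2 higher and 0 lower, 1 higher and 0 lower, and 0 higher and 0 lower. In wild type F1 worms they had 2 higher and 2 lower, 2 higher and 0 lower, 0 higher and 1 lower, and 0 higher and 3 lower.

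Across the 16 libraries the members differed in which transcripts followed them most closely. These are correlations of log2 CPM over 16 libraries that share 8 groups, among 9981 transcripts with a group mean of at least 10 CPM, given as descriptions. Transcripts outside the family were picked by highest r, so a group pattern shared with a member follows from that choice. vit-3 and vit-4 had Pearson's r of 0.979 with each other, vit-4 and vit-5 had 0.927, and vit-3 and vit-5 had 0.851. vit-1 had 0.284 to 0.426 with the other 4.

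Outside the family, vit-4 was closest to perm-2 (r = 0.996), which encodes an eggshell protein, and to ttr-14 (r = 0.994), a transthyretin-related gene. perm-2 was at 9.79 ± 0.49 CPM in damt-1 untreated, 22.6 ± 0.49 CPM in P0, 24.4 ± 0.012 CPM in F1 and 21.5 ± 3.1 CPM in F2 worms, and at 64.4 ± 0.63 CPM in wild type untreated, 59.4 ± 3.7 CPM in P0, 50 ± 1 CPM in F1 and 52.7 ± 0.47 CPM in F2 worms. ttr-14 was at 77.3 to 81.1 CPM in treated damt-1 groups, against 37.1 ± 1.7 CPM in damt-1 untreated worms, and at 163 to 229 CPM in treated wild type groups, against 237 ± 4.9 CPM in wild type untreated worms. The order of groups for perm-2 and ttr-14 was thus that of vit-4 between genotypes and, in damt-1 worms, between treated and untreated groups, over a narrower range.

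For vit-3 the closest were Y51H7C.13 (r = 0.986), F40E10.5 (r = 0.984) and let-716 (r = 0.983). vit-5 was closest to C23H4.2 (r = 0.966), nnt-1 (r = 0.966), which encodes the mitochondrial nicotinamide nucleotide transhydrogenase, and myo-5 (r = 0.964), a myosin heavy chain gene. nnt-1 was at 92.2 to 103 CPM in treated damt-1 groups, against 44.5 ± 3 CPM in damt-1 untreated worms, and at 272 to 285 CPM in treated wild type groups, against 213 ± 14 CPM in wild type untreated worms. vit-2 was closest to hrg-1 (r = 0.966), a heme transporter gene, nnt-1 (r = 0.963) and ugt-25 (r = 0.963).

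vit-1 was closest to pmp-1 (r = 0.967), which encodes a peroxisomal membrane transporter, hpo-32 (r = 0.961) and F13D12.6 (r = 0.96). pmp-1 was at 161 ± 0.23 CPM in damt-1 untreated, 103 ± 4 CPM in P0, 97.9 ± 3.3 CPM in F1 and 97.6 ± 7.3 CPM in F2 worms. Wild type levels were 128 ± 0.071 CPM untreated, 163 ± 8.7 CPM in P0, 206 ± 2 CPM in F1 and 190 ± 7 CPM in F2. Like vit-1, which it was picked to follow, pmp-1 was higher in treated than in untreated wild type worms and lower in treated than in untreated damt-1 worms.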

How the data were processed

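RNA-seq of 16 whole-worm libraries in 8 groups was used. The authors deposited raw counts per RefSeq transcript, and per the file headers also a log2 fold change of treated over untreated and an adjusted p-value for each treated group. The submitters' processing notes name, without roles, DESeq2 1.20.0, R 3.5.0, HTSeq 0.9.1, HISAT2 2.0.5, Trimmomatic 0.35, SAMtools 1.3.1 and the ce10 build. How reads matching several vitellogenin genes were counted, and whether duplicates were removed, is not given in the sources used here. The lowest row sum in a count table was 11, and a transcript absent from a group's table was not tested there, which touched no member.

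Counts were fitted with edgeR 4.0.16 in R 4.3.3: filterByExpr by group (minimum count 10), TMM factors and a robust quasi-likelihood fit of the 16 libraries with a mean for every group. P-values were adjusted by Benjamini-Hochberg per comparison, with a threshold of 0.05. The SE is the log2 difference divided by the square root of F. It is narrower than counting error where a group has few counts. Exact intervals are given for some of these comparisons and cover counting error only. Untreated counts were identical in all tables of a genotype. In the comparison tables, 24 columns of per-sample values were left unused. Replicate numbers did not pair libraries (r from -0.058 to 0.036 over 28 pairs of groups). Alternatives were DESeq2 1.42.0, RLE factors, library size only, TMM without vitellogenins, TMM from transcripts under 0.2 counts per nucleotide, 2 other filters, only the groups compared, a replicate block, a log2 limit of 1 and each library left out. Symbols and gene structures came from RefSeq for WBcel235, matched by accession for 12629 transcripts, and its coordinates were not used because the builds differ. Named genes were the 6 members, up to 4 per list with the smallest adjusted p over the treated comparisons, defining markers of a list (dsc-4, elt-2, mab-3), and the 3 transcripts closest in pattern to each member. The members and lists were chosen with earlier results of these data known. Figures were drawn with matplotlib 3.10.9.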

Additional observations from a re-analysis of the deposited data

Results flagged for a closer look

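The change with antimycin A differed between damt-1 and wild type worms for 4 members, tested as the change in damt-1 minus that in wild type worms on the log2 scale (edgeR, all past an adjusted p of 0.05). The values at P0, F1 and F2 were 3.20, 3.07 and 2.98 for vit-5, 2.45, 2.85 and 2.75 for vit-4, 1.24, 1.81 and 1.80 for vit-3, and -1.43, -1.60 and -1.57 for vit-1. The sum of vit-3, vit-4 and vit-5 had 1.49, 1.65 and 1.59, and the sum of vit-1 and vit-2 had -1.42, -1.58 and -1.56. The vit-5 and vit-4 values rest on 13 and 45 counts in damt-1 untreated worms. With 2 libraries a group, single libraries were not tested for standing apart.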

How the results depend on the processing

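No called result reversed its direction in any alternative. Counts of called members stayed within 1.5 times the reported count except under a log2 limit of 1, which left 1 in wild type P0, 1 in F1 and 1 in F2, 2 in damt-1 P0, 3 in damt-1 against wild type at F1, and 0 in wild type F1 and 0 in F2 against P0. That limit also ended the call of these sums: vit-3, vit-4 and vit-5 in wild type P0 (0.423), F1 (0.348) and F2 (0.35), and vit-1 and vit-2 in wild type P0 (0.598), F1 (0.712) and F2 (0.762), in damt-1 P0 (-0.821), F1 (-0.868) and F2 (-0.8), in damt-1 against wild type untreated (0.598), at P0 (-0.821), F1 (-0.982) and F2 (-0.964), and in wild type F2 against P0 (0.164).

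The small differences between wild type generations changed their call under several alternatives. For vit-1 and vit-2, F1 against P0 was called with library size only (0.12), and F2 against P0 was not called with TMM from transcripts under 0.2 counts per nucleotide (0.088). For vit-3, vit-4 and vit-5, F1 against P0 was called with that TMM (-0.172), and F2 against P0 when only these groups were fitted (-0.0891). That TMM moved the median of all transcripts by -0.147 and -0.126 in wild type F1 and F2, and by 0.125, 0.241 and 0.224 in damt-1 against wild type at P0, F1 and F2. In damt-1 against wild type at F1 that TMM gave 5315 transcripts higher and 2308 lower, against 3045 and 3331 as reported, and in wild type F1 against untreated 2373 and 4031, against 3290 and 2600. The cause was not tested. Leaving out each library in turn gave 0.136 to 0.202 for vit-1 and vit-2 in wild type F2 against P0 and 0.0835 to 0.113 in F1 against P0. The F2 call was lost without wild type P0 replicate 1 (adjusted p = 0.057), P0 replicate 2 (0.089) or F2 replicate 2 (0.1), and the F1 difference was called without damt-1 F2 replicate 1 or 2 (0.031 each).

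Without 1 library, called members numbered 4 to 5 in damt-1 against wild type at P0, F1 and F2, and 3 to 4 in wild type F1 and F2 against P0. Outside a log2 limit of 1, vit-5, vit-4, vit-3 and vit-1 kept their side of the threshold in every alternative for damt-1 against wild type, treated against untreated and the interactions. The replicate block changed no call, and gave 5.03 for vit-5 in damt-1 P0 against untreated worms. vit-2 did not pass a filter of 10 CPM and had no value there. Exact intervals of its ratios cover counting error only.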
